A study of Drosophila melanogaster with 3 samples.

Results

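Binding of the transcription factor subunit Nf-YC was examined at 10 Drosophila genes that drive the cell cycle: CycA, CycB, CycB3, CycE, Cdk1, Cdk2, stg, fzy, E2f1 and dap. They were taken by symbol from 13945 annotated protein-coding genes. A peak was assigned to a gene when its summit lay inside the gene or within 5 kb of either end. Of the 10 genes, 6 had peaks in this range, in all 21 of the 7476 peaks that passed the authors' irreproducible discovery rate (IDR) filter across replicates, called the thresholded set here. CycB3, Cdk2, stg and dap had no such peak. Of all 13945 protein-coding genes, 56.5% had one in this range.

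The material was whole embryos of both sexes, aged 0 to 18 h, from a single transgenic line that stably expresses Nf-YC with a C-terminal GFP. Chromatin was recovered with an antibody against GFP, in 3 biological replicates that form the only group of the study. All embryos carried the transgene, and the labels do not say what drives it. The cells of an embryo divide at different times and stages were mixed, so strong binding in few cells and weak binding in many cannot be told apart. Each peak carries the signal value of the authors' peak caller, which has no stated unit and was not scaled between lists. Besides the thresholded set there was a list for each replicate and a list for the replicates pooled, each with 30000 peaks. The median signal was 456 in the thresholded set, 113 in the pooled list, and 61.6, 45.3 and 29.0 in the lists of replicates 1, 2 and 3. Read depth is unknown. No test could be made with 1 group, and shares are set beside the same share over all genes or all peaks.

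NF-Y is a complex of 3 subunits that recognises CCAAT, a common element of promoters, and Nf-YC pairs within it through a fold shared with histones. In animal cells the cell cycle is driven by cyclin-dependent kinases, which act only with a cyclin partner. CycE with Cdk2 starts DNA replication, and CycA, CycB and CycB3 with Cdk1 bring about mitosis. The phosphatase encoded by stg (string, a Cdc25) removes inhibitory phosphates from Cdk1. The fzy product (fizzy, a Cdc20) directs the anaphase-promoting complex (APC/C) to mitotic cyclins, E2f1 activates genes of S phase, and dap (dacapo, of the p21 and p27 family) inhibits CycE with Cdk2. In mammalian cells NF-Y is known for binding CCAAT elements in promoters of mitotic cyclin and Cdk1 genes.

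CCAAT lay within 100 bp of the summit at 7 of the 21 peaks, against 38.1% of all thresholded peaks. These sites are shown because they are the letters NF-Y is known to recognise. Whether Nf-YC is bound at them was not tested. Each is written 5′ to 3′ on the strand that reads CCAAT, with CCAAT in capitals, on the dm6 assembly. The CycA sites lie at chr3L:11822416-11822444 (minus strand) and chr3L:11825690-11825718 (plus strand). The CycE site lies at chr2L:15752110-15752138 (plus strand) and the Cdk1 site at chr2L:10386574-10386602 (minus strand). The fzy sites lie at chr2L:16307221-16307249 and chr2L:16315233-16315261 (both minus strand), and the E2f1 site at chr3R:21619253-21619281 (plus strand). Peaks are numbered within each gene by position along the chromosome arm.
CycA peak 1: aattaatagctgCCAATgtcacaaatcat
CycA peak 3: gatttttctacaCCAATcgtataagggca
CycE peak 2: aattcgaatataCCAATcatatttccata
Cdk1 peak 2: agttgcggtattCCAATtacattttttaa
fzy peak 1: gacacacgttttCCAATatttcaaaatat
fzy peak 3: tttcaacgcacaCCAATgccttgtgatcg
E2f1 peak 2: acactcacaattCCAATtcacggcgaccg

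The 201 bases centred on the summit are given for 4 peaks, on the plus strand. CycE peak 1 (chr2L:15747071-15747271) is the strongest peak inside any of the 10 genes. Cdk1 peak 2 (chr2L:10386405-10386605) and fzy peak 2 (chr2L:16310736-16310936) lie between divergent start sites just upstream of their gene. E2f1 peak 5 (chr3R:21637120-21637320) is an intronic peak. Capitals in the Cdk1 sequence mark ATTGG, which is CCAAT on the minus strand. Those in the E2f1 sequence mark a run of GAGAG and the letters CTACCTG, which are CAGGTAG on the minus strand. In the CycE and fzy sequences, neither CCAAT nor any other motif marked here was found.
CycE peak 1: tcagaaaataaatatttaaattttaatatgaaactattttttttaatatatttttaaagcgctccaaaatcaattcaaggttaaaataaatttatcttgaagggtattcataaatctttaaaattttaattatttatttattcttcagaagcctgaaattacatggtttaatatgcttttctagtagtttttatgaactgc
Cdk1 peak 2: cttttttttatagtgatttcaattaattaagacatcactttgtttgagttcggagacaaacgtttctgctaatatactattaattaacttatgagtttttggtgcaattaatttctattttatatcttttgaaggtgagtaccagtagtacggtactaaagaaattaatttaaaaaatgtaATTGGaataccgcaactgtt
fzy peak 2: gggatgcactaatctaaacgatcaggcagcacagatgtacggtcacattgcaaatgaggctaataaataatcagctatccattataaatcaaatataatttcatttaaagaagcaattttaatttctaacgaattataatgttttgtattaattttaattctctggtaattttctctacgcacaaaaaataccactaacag
E2f1 peak 5: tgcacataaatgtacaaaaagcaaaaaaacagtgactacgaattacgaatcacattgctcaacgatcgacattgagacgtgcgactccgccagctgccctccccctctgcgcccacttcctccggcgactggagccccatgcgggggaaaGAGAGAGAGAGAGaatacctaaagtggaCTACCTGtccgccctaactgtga

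The 6 genes with a thresholded peak were CycA with 3, CycB with 2, CycE with 2, Cdk1 with 3, fzy with 3 and E2f1 with 8. A thresholded summit lay in the same window at 56.5% of all protein-coding genes, so 6 of 10 is close to the share of all genes at this distance. Within 1 kb of the gene the count was again 6, against 38.7% of all genes. Inside the gene itself, a summit was found at CycE and E2f1 only, 2 of the 10, against 15.9% of all genes. The median length of the 10 genes was 3682 bp against 2166 bp for all genes, though Cdk1 (1524 bp) and fzy (2142 bp) were shorter than 2166 bp. The windows of the 10 genes held a median of 2 summits against 1. Of the 21 summits, 11 were intergenic, 8 intronic, 1 in a 5′ UTR and 1 in a 3′ UTR. Intergenic here includes sequence just upstream of a start site. Of these 11 summits, only CycB peak 2, at 3334 bp, lay over 500 bp from a protein-coding start site. The shares of these classes over all thresholded peaks are not given here.

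Promoter peaks, those whose summit lay no more than 500 bp from where transcription of the gene starts (TSS, transcription start site), were present at Cdk1, fzy and E2f1. That is 3 of 10, against 30.6% of all protein-coding genes, and is again close to the background. None of the mitotic cyclins had one. The set of genes was not stable. Peaks strong in both of the other replicate lists gave CycA, Cdk1, fzy and E2f1 without replicate 1, and Cdk1 and fzy without replicate 2 or without replicate 3. Those sets were also stricter, with 4855, 4752 and 5532 peaks, and 22.3%, 21.7% and 24.3% of all genes had a promoter peak in them. The part of the replicate and that of the stricter set cannot be told apart.

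Nearest TSSs were sought among protein-coding genes only. Of the 21 summits, 13 had a TSS of a gene other than the 10 as their nearest, and 12 of these were within 500 bp of it. The remaining 8 were nearest to a TSS of CycB, CycE, fzy or E2f1, and 5 of the 8 were at E2f1. The matching share over the windows of all genes is not given here. At fzy peak 2 the choice was close, with cni at 110 bp and fzy at 120 bp. The signal of the 21 peaks had a median of 385 against 456 for all thresholded peaks, and a range of 274.5 to 2429. The top 25% of the set held 4 of them, with 11 in the lower 50% and 5 in the lowest 25%. At 18 of the 21, each of the 3 replicate lists held a summit within 100 bp, as they did at 80.9% of all thresholded peaks.

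**Figure D1:**
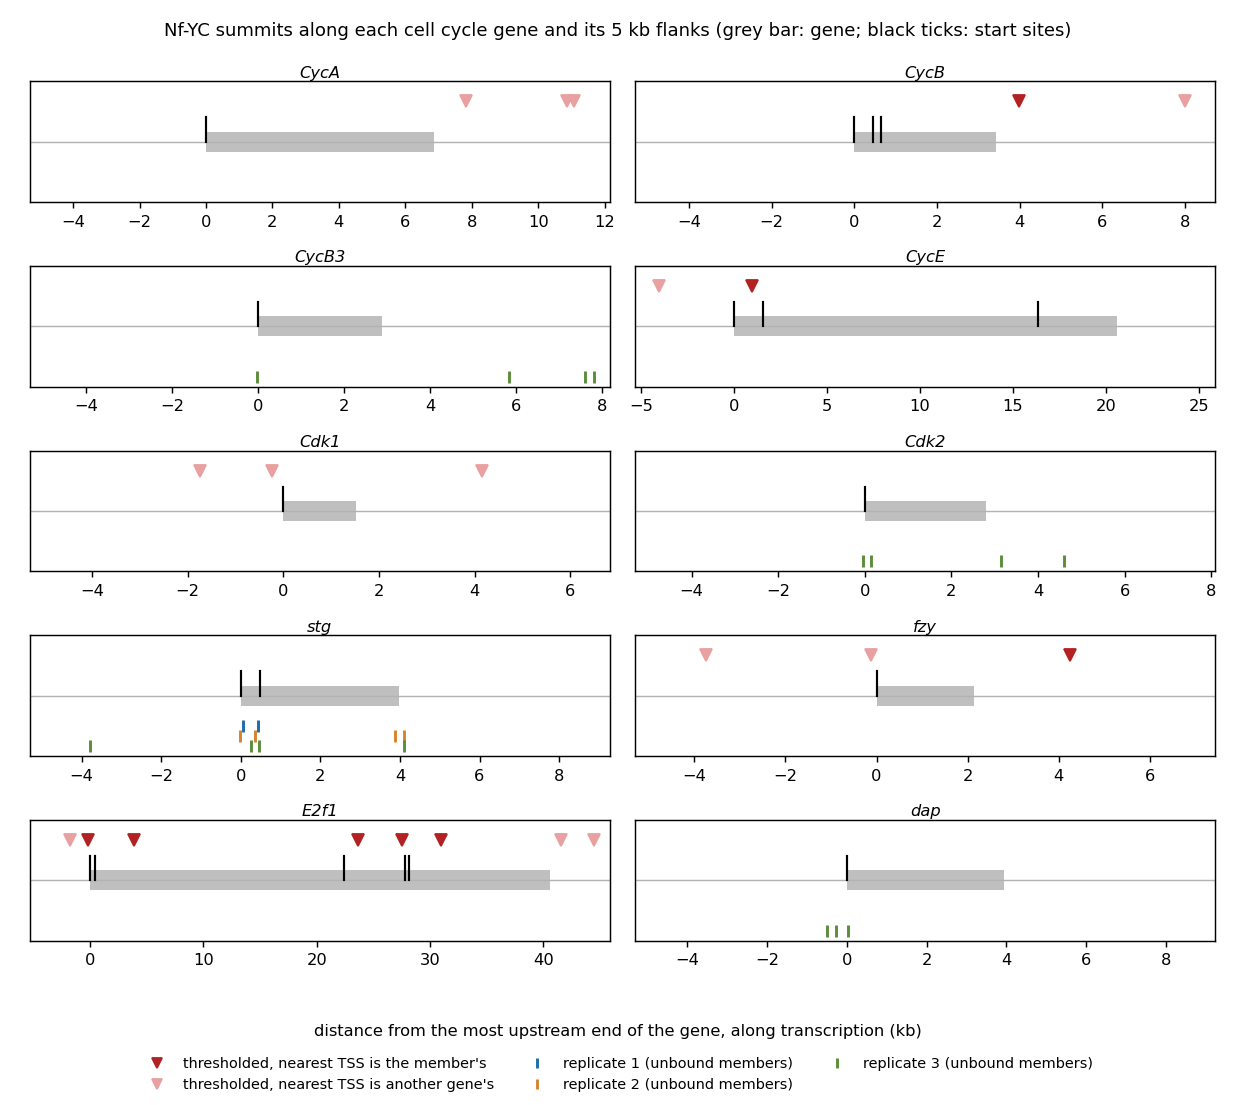
Each panel is one gene drawn along its transcription, with distance from its most upstream end in kb on the x axis; the grey bar is the gene, black ticks are start sites, triangles are thresholded summits, and coloured ticks are summits of the replicate lists, drawn for the 4 genes with no thresholded peak. Dark triangles, whose nearest start site belongs to the gene, number 8, and only CycE and E2f1 have summits inside the grey bar; CycB3, Cdk2 and dap have ticks from replicate 3 alone.

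Among the mitotic cyclins, CycB (FBgn0000405, chromosome arm 2R, 22803521 to 22806948, minus strand) had the strongest peak of the 10 genes. The peak spans 22802730 to 22803201 in intergenic sequence. Its summit lay 552 bp beyond the 3′ end of CycB and 3334 bp from the nearest protein-coding TSS, which is a CycB TSS. The signal was 1079 in replicate 1, 767 in replicate 2 and 574 in replicate 3, a mean of 807 ± 255 (SD, n = 3). The ranks by signal were 632, 603 and 538 of 30000, so its place was much alike in the 3 lists. In the thresholded set, with a signal of 2429, it ranked 589 of 7476. It held no CCAAT within 100 bp of the summit and 2 matches of CGATA, the core letters of the DNA replication-related element. CycB peak 1 was 143 bp upstream of blw, the gene of an ATP synthase subunit, with replicate signals of 271, 161 and 252. No thresholded summit was within 500 bp of a TSS of CycB itself.

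CycA (FBgn0000404, 3L, 11826719 to 11833578, minus strand) had 3 thresholded peaks, all beyond its 3′ end. The strongest was peak 3, 969 bp downstream of CycA and 18 bp upstream of a TSS of CG32095. Its signal was 509, 296 and 181 in replicates 1, 2 and 3, a mean of 329 ± 167 (SD, n = 3), with ranks of 1396, 1709 and 2029. The CCAAT shown above lay 46 bp from this summit. Peaks 1 and 2 overlapped each other between CG11597, CG5946 and the ribosomal protein gene RpL10Ab, and neither had a summit within 100 bp in all replicate lists. Peak 1 had signals of 36.2 in replicate 2 and 162 in replicate 3, and none in replicate 1. Peak 2 had 192 in replicate 1 and 63.9 in replicate 3, and none in replicate 2. The distance of every CycA peak from its own TSS was at least 7828 bp.

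At the TSS of CycA, a summit was listed in replicates 2 and 3 but not in the pooled list or in replicate 1. Its signal was 104 in replicate 2, 64 bp upstream at rank 6555, and 114 in replicate 3, 73 bp upstream at rank 3437. CycB had a summit 126 bp upstream of a TSS in replicate 3 only, with a signal of 121 at rank 3206. CycB3 (FBgn0015625, 3R, 24867934 to 24870816, minus strand) also had one in replicate 3 only, 31 bp upstream, with a signal of 37.8 at rank 11132. The thresholded summit nearest to CycB3 was 5925 bp from its TSS and just outside the window. All 3 mitotic cyclin genes thus had a summit at their TSS in replicate 3, and none had one in replicate 1. Over all 9681 protein-coding genes without a thresholded promoter peak, 29.5% had a summit within 500 bp of a TSS in replicate 3 and 24.9% in replicate 1. The replicate 3 summits were not particular to the mitotic cyclins. Each of the 7 genes studied here without a thresholded promoter peak had one.

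CycE (FBgn0010382, 2L, 15727581 to 15748150, minus strand) carried the second strongest peak. It spans 15746840 to 15747419 in a CycE intron, and its summit at 15747171 lay 561 bp upstream of an internal CycE TSS at 15746610 and 979 bp downstream of the most upstream one. The distance is just over the 500 bp used for promoter peaks. Signals were 729, 392 and 557 in replicates 1, 2 and 3, a mean of 559 ± 169 (SD, n = 3), and the ranks were 961, 1231 and 554. The sequence of this peak, shown above, was 19.9% G or C, and 0.575% of all thresholded peaks had as low a share or a lower one. The other peak, 4020 bp upstream of CycE, lay 93 bp from a TSS of Mtr4, an RNA helicase gene, and had signals of 129, 111 and 70.2. Close to the most upstream CycE TSS, weak summits were listed in the pooled list (68.9, 86 bp upstream), in replicate 2 (37.6, 32 bp upstream) and in replicate 3 (28.9, 39 bp upstream).

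Cdk2 (FBgn0004107, 3R, 20735623 to 20738414, plus strand), the kinase partner of CycE, had the most distant thresholded summit of the 10 genes, 83264 bp from its TSS. No summit was listed in its window in replicate 1, replicate 2 or the pooled list. Replicate 3 had 4, the strongest 51 bp upstream of the TSS with a signal of 62.7 at rank 6583. CycE and Cdk2, whose products work as 1 complex, thus differed in that CycE had a peak among the top 1000 of the thresholded set and Cdk2 had none in it.

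Cdk1 (FBgn0004106, 2L, 10384739 to 10386262, minus strand), the mitotic kinase, had a promoter peak between divergent genes. The peak spans 10386345 to 10386630, with its summit 243 bp upstream of the Cdk1 TSS and 157 bp from the TSS of mRpS7, a mitochondrial ribosomal protein gene. Signals near this summit were 213, 97.9 and 182 in replicates 1, 2 and 3, a mean of 164 ± 59.5 (SD, n = 3). In replicate 2 a stronger summit of 146 lay closer to Cdk1, 118 bp upstream of its TSS. A single CCAAT lay 83 bp from the thresholded summit, on the side of mRpS7. Cdk1 peak 1 lay in the 3′ UTR of gny and 157 bp from a TSS of CG5096. It was stronger than peak 2 in the thresholded set (681 against 544). Its signals were 286, 301 and 89.1, and its ranks 2783, 1681 and 4513. Peak 3 lay 100 bp upstream of da, which encodes a helix-loop-helix transcription factor. Its signals were 165, 176 and 149, and its ranks 5582, 3361 and 2538.

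The Cdk1 activator stg (FBgn0003525, 3R, 29251826 to 29255800, minus strand) had no thresholded summit within 31936 bp of a TSS. It was nevertheless the only one of the 4 genes without a peak to have summits at its promoter in every relaxed list. The strongest was 173 in the pooled list (rank 10464), 55.3 in replicate 1 (rank 16500), 44.3 in replicate 2 (rank 15277) and 63.1 in replicate 3 (rank 6535). They lay 80, 48, 121 and 20 bp upstream of the internal stg TSS at 29255325, in the 5′ UTR of the longer transcript. The summits thus fell close together in all 4 lists. In the pooled list, whose peaks make up the thresholded set, 173 was below the weakest thresholded signal of 246. The inhibitor gene dap (FBgn0010316, 2R, 9712321 to 9716256, plus strand) had 3 summits in replicate 3 and none in any other list. The strongest had a signal of 37.7, 485 bp upstream of the TSS, and another of 34.0 lay 35 bp downstream of it.

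The APC/C activator fzy (FBgn0001086, 2L, 16310956 to 16313097, plus strand) had a narrow promoter peak spanning 16310715 to 16310836. Its summit is the last base of the peak, which holds for only 3 of the 7476 thresholded peaks. This summit lay 120 bp upstream of fzy and 110 bp upstream of the divergent gene cni. The cni gene is known for its role in transport of a signal from the oocyte. The nearest summits of replicates 1 and 3 were 44 and 49 bp away, on the side of fzy, at 76 and 71 bp upstream of its TSS. Signals were 138, 156 and 81.9, a mean of 126 ± 38.9 (SD, n = 3). Stronger was fzy peak 1, which lay 91 bp downstream of a TSS of CG5861 in its 5′ UTR, with 342, 281 and 192, a mean of 272 ± 75.5 (SD, n = 3). It held a CCAAT 28 bp from the summit and 2 copies of TATCGATA, the full replication-related element. Peak 3 lay in an intron of cact, the fly IκB homologue, and fzy was its nearest TSS at 4251 bp. Its signals were 152, 130 and 60.8.

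E2f1 (FBgn0011766, 3R, 21620304 to 21660871, minus strand), the longest of the 10 genes with 5 TSSs, had 8 peaks, none in the top 25% of the thresholded set. Its introns held 4 of them. Peak 7, the promoter peak of the most upstream TSS, lay 138 bp upstream with 113, 112 and 63.6 in replicates 1, 2 and 3, a mean of 96.1 ± 28.2 (SD, n = 3). Peak 4, 299 bp upstream of the internal TSS at 21633073, rested largely on replicate 1, with 239 there against 38.9 and 36.9 in replicates 2 and 3. Its SD of 116 was larger than its mean of 105 (n = 3). A stronger replicate 3 summit of 63.6, 187 bp upstream of the same TSS, lay outside the 100 bp match and is not in these values. Peak 6 had a summit within 100 bp only in replicate 1, with 129. Peaks 3 and 5 were less uneven between lists, at 136, 106 and 84.6 and at 145, 106 and 74.0. The strongest of the window, peak 8 at 597, lay in an intron of Archease. Peaks 1 and 2 were at InR, the insulin receptor gene, and peak 2 was 5 bp upstream of an InR TSS with 185, 175 and 139.

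Ordered by their strongest thresholded peak, the genes ran CycB, CycE, CycA, fzy, Cdk1 and E2f1. The ranges over replicates of neighbouring genes in that order overlapped in every case. Within each replicate list, the CycB peak was above the CycE peak and the CycE peak above that of CycA. CycA peak 3 was above fzy peak 1 in replicates 1 and 2 and below it in replicate 3. Only the CycB and CycE peaks had a CycB or CycE TSS as the nearest one, while the strongest peaks of CycA, fzy, Cdk1 and E2f1 were nearer to another gene. Without replicate 2, Cdk1 and E2f1 changed places, to 6th and 5th.

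**Figure D2:**
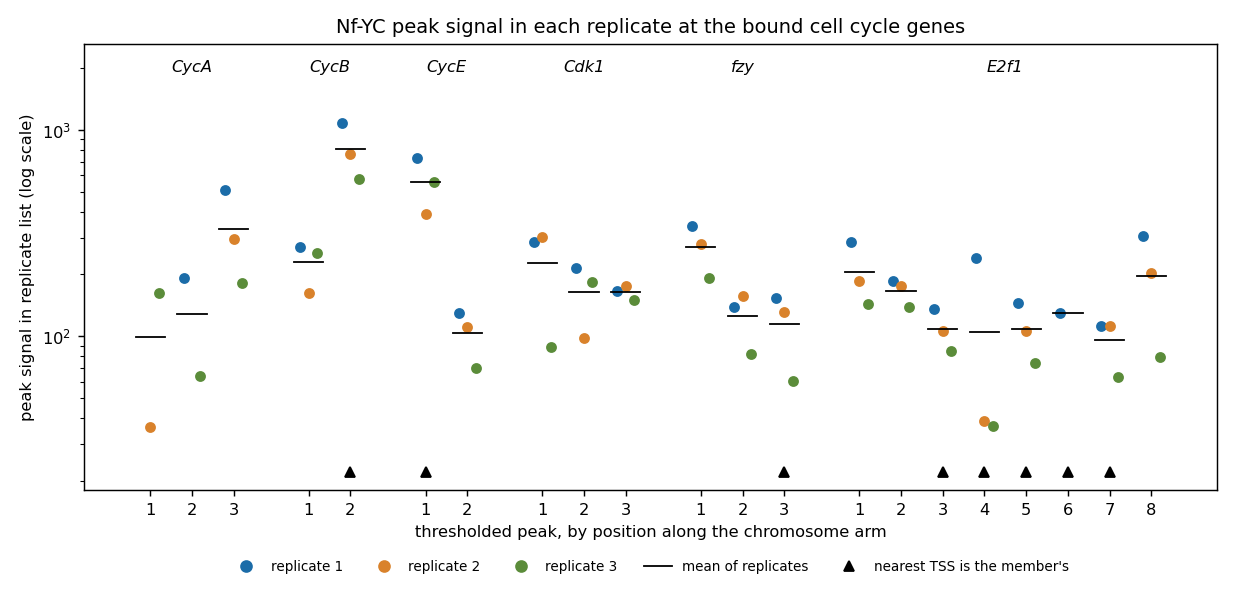
Each column is 1 of the 21 thresholded peaks, grouped by gene and numbered by position along the arm; the y axis is the signal in the replicate list on a log scale, points are the replicates with a summit within 100 bp, the line is their mean, and triangles mark peaks whose nearest start site is the gene's own. CycB peak 2 and CycE peak 1 stand highest, at means of 807 and 559, and the 3 points of E2f1 peak 4 spread from 36.9 to 239.

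In the relaxed lists, replicate 3 stood apart at the TSSs of these genes. Of the 7 genes without a thresholded promoter peak (CycA, CycB, CycB3, CycE, Cdk2, stg and dap), 1 had a summit within 500 bp of a TSS in replicate 1, 3 in replicate 2, 2 in the pooled list and 7 in replicate 3. Over all 9681 protein-coding genes without a thresholded promoter peak, the shares were 24.9% in replicate 1, 26.8% in replicate 2, 22.3% in the pooled list and 29.5% in replicate 3. CycB, CycB3, Cdk2 and dap had one in replicate 3 only of the 3, as did 11.9% of the 9681. In the whole window, CycB3, Cdk2 and dap had summits in replicate 3 and in no other list, as did 13.1% of all 13945 genes.

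These replicate 3 summits differed in strength. The median strongest promoter signal of such genes in replicate 3 was 38.3, with an upper quartile of 63.7. CycB at 121 and CycA at 114 were above that quartile, stg and Cdk2 were just below it, and CycB3 (37.8), dap (37.7) and CycE (28.9) were below the median. The lists ended at signals of 22.8, 17.7 and 15.9 in replicates 1, 2 and 3. Each holds 30000 peaks and signals are not scaled between lists, so these ends cannot be compared. Whether the lists reach equally weak sites was not tested.

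**Figure D3:**
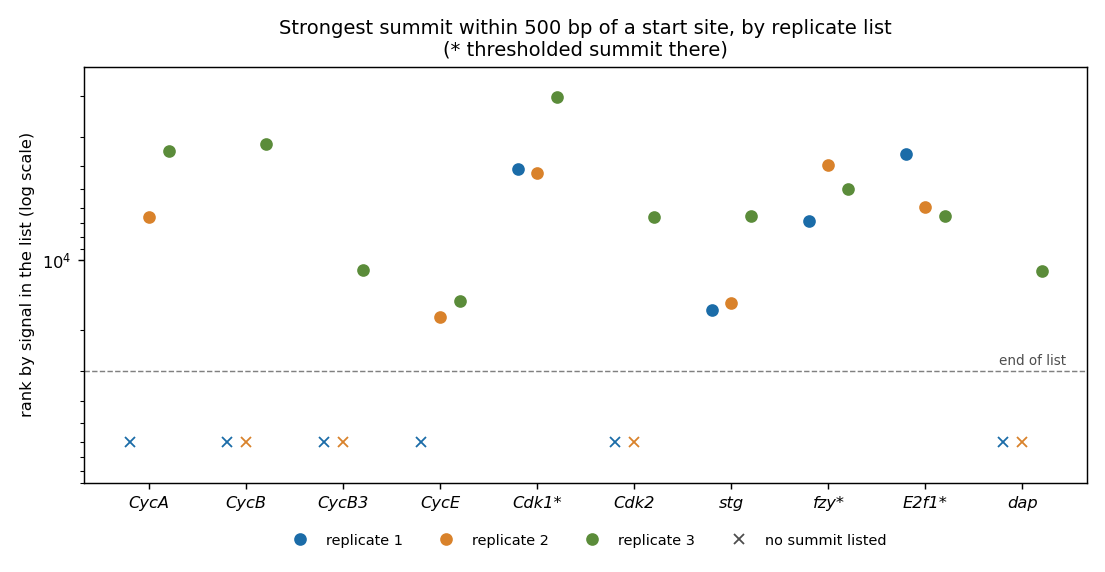
For each gene, points give the rank of the strongest summit within 500 bp of a start site in each replicate list (y axis, log scale, rank 1 at the top), and crosses mark lists with no summit there; the dashed line is the end of each list at 30000, and an asterisk marks genes with a thresholded promoter peak. Every gene has a replicate 3 point, while CycB, CycB3, Cdk2 and dap have crosses in replicates 1 and 2.

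CCAAT was no more frequent at these peaks than in the thresholded set. It lay within 100 bp of the summit, on either strand, at 33.3% of the 21 peaks and at 38.1% of all 7476. Of the 8 peaks nearest to one of the genes' own TSSs, 1 held it, fzy peak 3. The genes have 19 TSSs, and in the window from 250 bp upstream to 50 bp downstream CCAAT was present at 8 of them. None of the 8 had a thresholded summit within 500 bp, against 29.1% of all 8949 TSSs with CCAAT, but 3 of them had one not far outside, at 561 and 979 bp (CycE) and 577 bp (E2f1). Of the 11 without it, 4 had one, at Cdk1, fzy and 2 TSSs of E2f1, against 28.7% of all 10658 such TSSs.

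The E2f1 TSS at 21660432 was the richest in CCAAT, with 4 matches centred 180, 63, 50 and 15 bp upstream, and the nearest thresholded summit was 577 bp away. CycA and CycB3 had 1 each, 214 and 123 bp upstream, and the 3 TSSs of CycE and the 2 of stg had 1 each. Neither CycB, Cdk1, Cdk2, fzy nor dap had CCAAT in the window of any TSS. At the most upstream TSS, 4 of the 10 genes had it, against 46.7% of all protein-coding genes.

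Other letters were searched in the same way on both strands. GAGAG, which GAGA factor recognises, was at 3 of the 21 peaks, all at E2f1, against 31.7% of all peaks. CGATA was at 6 peaks (29.9% of all), and the longer TATCGATA, which contains it, at 2 (4.08% of all). The E2F letters TTCCCGC or TTCGCGC or TTGGCGC or TTGCCGC were at 2 (10.7% of all). TTTGAA or TTCGAA, the letters of the cell cycle homology region through which the dREAM complex is known to bind in mammals, were at 8 (29.9% of all). CAGGTAG, the element of the early embryonic activator Zelda, was at E2f1 peak 5 alone (1.02% of all). In base composition, the 21 windows had a median of 30.8% G or C against 40.8% for all thresholded peaks, and 14 of them were below that median. The lowest was CycE peak 1 and the highest E2f1 peak 5, at 52.2%.

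A wider set of cell cycle genes was taken in 6 lists by role, chosen with earlier results of these data known. Of 64 matched genes, 31 had a promoter peak and 48 had a summit within 5 kb, beside the 30.6% and 56.5% of all genes. Several of the promoter summits counted for these 31 genes were nearer to a TSS of another gene. In the upper 50% of the thresholded set by signal, 14 of the 64 had a promoter peak, beside 17.7% of all genes. The E2F and dREAM list, of transcription factors and repressors of the cell cycle, had 7 of 10 with a promoter peak and all 10 within 5 kb. The dREAM subunit gene lin-52 had signals of 1179, 763 and 425 in replicates 1, 2 and 3, a mean of 789 ± 378 (SD, n = 3), though a TSS of CG15771 was nearer to the summit, at 130 bp against 486 bp. Dp, the dimer partner of E2F proteins, had 942, 670 and 435, a mean of 682 ± 254 (SD, n = 3), 176 bp from its TSS. Both exceeded every E2f1 peak in each replicate list. The peak of mip130, another dREAM subunit gene, averaged 147 ± 70.5 (SD, n = 3) and lay 14 bp from a TSS of Edem1. In the thresholded set, this peak and the weaker promoter peaks of the list had signals from 439 down to 270. All of these were below the median of 456 for the set.

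Other cyclins, Cdks and their Cks subunits had a promoter peak at 7 of 16. Cdk4, the partner of CycD in cell growth, had 1005, 524 and 228, a mean of 586 ± 392 (SD, n = 3), 332 bp from its TSS. Cdk12, a kinase of RNA polymerase II, had 396 ± 136 (SD, n = 3) with a TSS of SAK nearer, and CycT had 277 and 210 in replicates 1 and 2 and no summit within 100 bp in replicate 3. Of the mitotic kinase and spindle checkpoint genes, 7 of 14 had a promoter peak. The kinase gene aurA had 276 ± 97.9, aurB 245 ± 97.0 and the securin gene pim 208 ± 96.9 (SD, n = 3 each). The aurB summit was nearer to Stam.

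The APC/C list, whose complex fzy activates, had 5 of 13. The subunit gene Cdc16 had 504, 395 and 312, a mean of 404 ± 96.3 (SD, n = 3), 103 bp from its TSS. The summits counted for lmgA and shtd, at means of 314 ± 228 and 173 ± 42.9 (SD, n = 3), were nearer to CG17834 and to CG6294 and CG6299. Of the genes for Cdk phosphorylation and inhibitors, 2 of 5 had a promoter peak, trbl with 181 ± 121 and rux with 110 ± 37.1 (SD, n = 3 each). The DNA damage checkpoint list had 3 of 6, the kinase gene grp with 178 ± 61.8, mus304 with 135 ± 45.9 and p53 with 102 ± 12.01 (SD, n = 3 each).

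**Figure D4:**
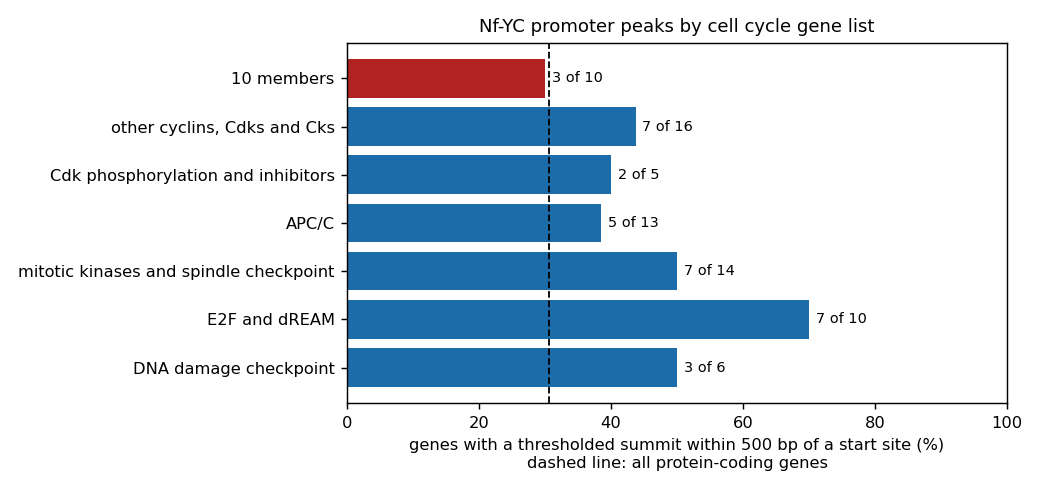
Bars give the percentage of genes in each list with a thresholded summit within 500 bp of a start site, with the counts at the bar ends; the dashed line is the share of all protein-coding genes. Peaks of any signal in the thresholded set are counted, also where the summit is nearer to a start site of another gene. The lists were chosen with earlier results of these data known. The 10 genes described above stand at the line, with 3 of 10, and the E2F and dREAM list is highest with 7 of 10.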

How the data were processed

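Per the deposited notes, the authors called peaks on dm6 for each of 3 replicate alignments against 1 control alignment shared by all, again on the replicates pooled, and derived the thresholded set from these lists by IDR. The sources used here do not give the aligner, the caller or the IDR threshold. The deposited signal value has no stated unit and served only for describing peaks and for ranks inside 1 list. The files hold no read counts, so depth is unknown. The labels give size-selected fragments of 200 to 800 bp.

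From these lists, summits were placed on the Ensembl release 115 annotation (BDGP 6.54) and sequences were read from the RefSeq copy of the Release 6 genome, with Python 3.11.15, pandas 2.3.3 and NumPy 2.4.6. Coordinates are 1-based. Promoter peaks lie within 500 bp of a TSS of a protein-coding transcript, and nearest TSSs were sought among such TSSs only. A replicate value is that of the nearest summit within 100 bp, and an SD of signals also holds differences in scale between lists. The script was tested on simulated data. Replicates are biological per the labels. The genes and lists were chosen with earlier results of these data known. Named were the 10 genes, the gene with the TSS nearest to each of their summits, and up to 3 genes with the strongest promoter peaks in each list. Of 65 listed genes, 64 matched a symbol and Koko did not. Alternatives covered windows, peak sets, replicates left out, summit matching and motif distance. The control alignment was not analysed here.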

Additional observations from a re-analysis of the deposited data

How the results depend on the processing

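Of 43 alternative counts, 32 stayed within 1.5 times the reported value. The number of genes with a peak was 6 within 1 kb, 6 within 2 kb and 6 in the upper 50% of the set by signal, where 38.7%, 44.2% and 40.8% of all genes had one. It was 7 within 10 kb and 7 in the whole pooled list, against 68.5% and 69.5%, and 2 with summits inside the gene only, against 15.9%. It was 4 with peaks given to the nearest TSS, for which the share of all genes was not computed. It was 6 without replicate 1, 2 or 3, against 47.1%, 46.3% and 49.5% of all genes. The number of peaks fell from 21 to 5 inside the genes, 11 within 1 kb, 13 within 2 kb and 10 in the upper 50%. With replicates left out it was 16 to 17. The number of genes with a promoter peak was 1 (Cdk1) in that upper 50%, where 17.7% of all genes had one, and 5 (CycE, Cdk1, stg, fzy and E2f1) in the whole pooled list, where 46.1% had one. With replicates left out it was 2 to 4. CCAAT was at 4 of the 21 peaks within 50 bp of the summit, 11 within 250 bp, and 3 of the 10 in the upper 50%. The shares of all thresholded peaks at these settings were not computed, and a wider window can only add matches. Of the 64 genes in the 6 lists, 14 had a promoter peak in the upper 50%, where 17.7% of all genes had one. A summit in all 3 replicate lists was found at 12 of the 21 peaks within 50 bp and at 21 within 250 bp, against 52.5% and 92.8% of all thresholded peaks. E2f1 peak 6 had a mean signal of 103 ± 52.6 with summits matched within 250 bp. A set made without 1 replicate held 4752 to 5532 peaks, so a loss there may come from the stricter set. Depth is unknown, and a gene with no summit may lie below the end of a list.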
